A study of Mus musculus with 6 samples.

Results

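Chemokine ligands and receptors were examined on 6 Affymetrix arrays of mouse A316 cells, a primary adenocarcinoma line that lacks C/EBP alpha, a differentiation factor, through knockout of Cebpa. Members were the genes whose symbol begins with Ccl, Cxcl, Cx3cl, Xcl, Ccr or Cxcr and a digit, and that had a probe set listing no other gene. This gave 50 of 19937 named genes, of which 34 were ligands and 16 receptors. The treated group (3 arrays) had been given PTC-209, described in the labels as a means of Bmi inhibition, in 0.5% DMSO, and the control group (3 arrays) 0.5% DMSO alone. Both groups carry the Cebpa knockout, and 1 line was used. The study concerns Bmi1, a Polycomb protein, in lung adenocarcinoma with low C/EBP alpha, and the comparison asks what the compound changes in such cells. The labels state no dose, no exposure time and no separate cultures, so each p-value reflects only how far these arrays differ, and that spread may be technical.

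Chemokines are small secreted or membrane-tethered proteins that guide leukocytes along concentration gradients. They are grouped as CC, CXC, CX3C and XC by the spacing of the cysteines near their amino terminus, and they act through G protein-coupled receptors that are found mostly on leukocytes. Epithelial and tumour cells make many of the inflammatory ligands, whose genes are commonly induced through NF-kB or interferon signalling, and lie in clusters of near relatives.

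A316 cells given PTC-209 had lower transcript levels of 4 of the 5 members grouped here as CXCR2 ligands, which attract neutrophils. Levels of the CCR2 ligand Ccl2 and the CCR6 ligand Ccl20 were lower too. Ccl7, Ccl8 and Ccl12, near relatives of Ccl2, did not pass the threshold. Of the 50 members 13 fell, 2 rose and 35 did not pass the threshold, an adjusted p under 0.05 in limma's moderated test over all 28192 probe sets. Among all named genes 13.7% fell and 12.9% rose. The share of members that fell was 26.0%, and the share that rose 4.0%. Cxcl5, Ccl2, Ccl20, Cxcl3 and Cxcl1 each fell at least 2-fold, as did 4.3% of all named genes, and the first 4 of them at least 4-fold, as did 1.02%. The rises were of Ccl25 and Ccl28, ligands of mucosal tissues. The median log2 difference (PTC-209 minus DMSO) was -0.0665 over the members and 0.0263 over all named genes. In bulk RNA fewer cells of a kind and less RNA per cell cannot be told apart. Without single arrays the count of falls lay between 11 and 13. The count of rises was 2 to 4, and it was 4 without PTC-209 replicate 1, when Cxcl17 and Ccr9 also passed.

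All values are the deposited log2 expression values, in which a difference of 1 is a change of 2-fold. The median level in DMSO over the probe sets tested was 4.31, and members at or below it are called dim here. In DMSO 16 members lay above it, 15 ligands and 1 receptor. These were Cxcl5, Cxcl1, Ccl2, Cxcl3, Ccl19, Cxcl16, Ccl5, Ccl20, Cxcl2, Ccl25, Cxcl10, Cx3cl1, Ccr7, Cxcl14, Cxcl17 and Ccl11. The lowest of them was Ccl11 at 4.44, and the next below the line was Ccl3 at 4.30 with an SD of 0.253, so the place of Ccl3 is not settled. Of the 16 brighter members 8 fell and 1 rose, beside 24.3% and 21.3% of all named genes above the same median. Of the 34 dim members 5 fell and 1 rose, beside 1.5% and 2.98% of the 9205 named genes at or below that median. Where a group was dim, the levels or the log2 difference are given without a fold and its interval, because low levels make a ratio uncertain. The counts of 2-fold and 4-fold falls above use the fitted difference and include Ccl20, which was dim with PTC-209.

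**Figure D1:**
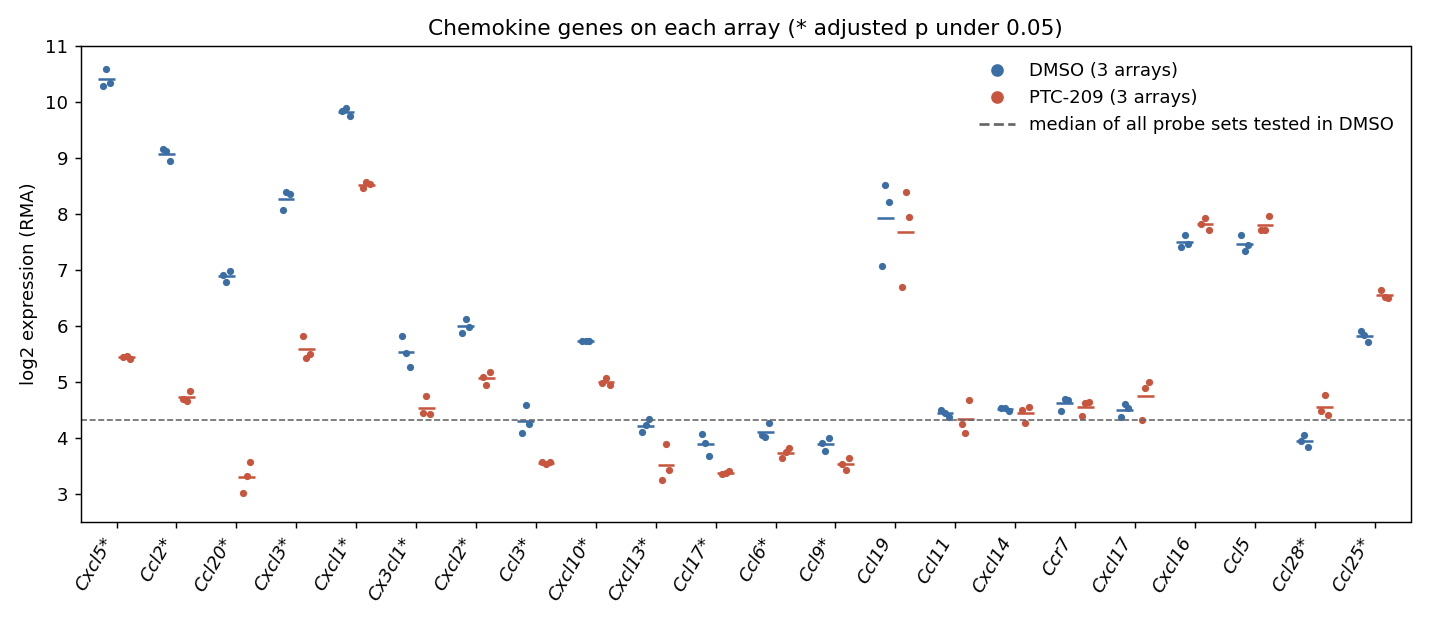
Log2 expression of the 22 members that were above the median in DMSO or passed the test, ordered from the most negative to the most positive difference. Each point is 1 array, bars are means of 3 arrays, and the dashed line is the median of all probe sets tested in DMSO (4.31). The 3 PTC-209 arrays of Cxcl5 lie between 5.41 and 5.46, below all DMSO arrays (10.29 to 10.59), while both groups of Ccl19 spread widely.

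The epithelial label was checked against markers. All 6 epithelial markers were above the median in DMSO, and their summed linear level (the sum of 2 to the power of the log2 values) was 7380 to 8230 in DMSO and 4560 to 5150 with PTC-209, with Krt8, Krt18 and Krt19 lower and Cdh1 and Cldn4 higher past the threshold. Of 6 lung lineage markers 1, Sftpa1 (4.33), lay above the median, and Nkx2-1 (3.60) and Sftpc (2.85) were dim. Leukocyte markers were dim (0 of 4 above the median; sums of 43.1 to 46.6 and 42.6 to 45.5), as were 2 B cell markers (8.08 to 11.8 and 9.09 to 11.5) and 3 neutrophil markers (23.5 to 28.4 and 22.2 to 24.3), of which Ly6g went from 3.32 to 2.45 and passed. Macrophage markers summed to 199 to 210 and 1050 to 1110, through Cd68, a lysosomal protein (7.42 and 10.03), while Adgre1, Csf1r, Itgam and Lyz2 were dim. Of 3 endothelial markers (710 to 754 and 262 to 344) Cdh5 fell from 9.48 to 8.15, with Pecam1 (3.39) and Kdr (2.80) dim. Of 4 T cell markers (50.5 to 53.0 and 48.8 to 55.7) Cd3e, at 4.38, lay above the median, and of 4 fibroblast markers (67.0 to 77.1 and 77.4 to 80.3) Col1a1 and Col1a2 did. The part of these shifts in the chemokine values was not tested.

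Promoter windows are shown first for 4 members that fell together, because these hold the same short motif. RefSeq's table (GRCm38.p6) holds a window of 250 bases before to 50 after the gene start for 36 members, 11 of which fell. It holds none for Cxcl5 and Ccl2, the members that fell most, so these were not searched for any motif. The motif is a narrow form of the kappaB element bound by NF-kB: GGGA, any 2 bases, then TTCC, read on both strands like all motifs here. It was taken after the wider form (GGG, any 5 bases, then CC) proved to be present in 50.8% of all 32851 windows and in 7 of the 11 members that fell, 14 of the 23 that did not pass and 1 of the 2 that rose. Capitals mark the narrow matches, which on opposite strands overlap by all but 1 base in Cxcl1, Cxcl2 and Cxcl3. Windows are on the strand of the gene, at chr5:90890995-90891294 (+) for Cxcl1, chr5:90903649-90903948 (+) for Cxcl2, chr5:90785851-90786150 (+) for Cxcl3 and chr5:92348840-92349139 (-) for Cxcl10.
Cxcl1: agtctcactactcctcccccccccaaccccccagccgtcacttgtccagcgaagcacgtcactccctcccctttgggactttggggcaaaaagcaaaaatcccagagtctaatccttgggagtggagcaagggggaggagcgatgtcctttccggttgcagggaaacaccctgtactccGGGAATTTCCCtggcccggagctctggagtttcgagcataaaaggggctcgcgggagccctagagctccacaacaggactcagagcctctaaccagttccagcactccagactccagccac
Cxcl2: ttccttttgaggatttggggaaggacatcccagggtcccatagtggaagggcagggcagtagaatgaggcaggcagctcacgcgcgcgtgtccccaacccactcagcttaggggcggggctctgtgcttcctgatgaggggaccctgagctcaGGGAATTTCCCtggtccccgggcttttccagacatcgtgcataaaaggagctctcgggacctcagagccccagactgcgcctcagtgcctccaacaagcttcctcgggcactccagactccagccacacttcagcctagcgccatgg
Cxcl3: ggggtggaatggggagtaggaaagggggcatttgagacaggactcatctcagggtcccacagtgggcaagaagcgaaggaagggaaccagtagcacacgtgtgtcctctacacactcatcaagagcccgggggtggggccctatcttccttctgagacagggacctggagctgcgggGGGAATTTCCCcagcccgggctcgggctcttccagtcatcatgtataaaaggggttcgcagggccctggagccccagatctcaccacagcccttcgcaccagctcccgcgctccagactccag
Cxcl10: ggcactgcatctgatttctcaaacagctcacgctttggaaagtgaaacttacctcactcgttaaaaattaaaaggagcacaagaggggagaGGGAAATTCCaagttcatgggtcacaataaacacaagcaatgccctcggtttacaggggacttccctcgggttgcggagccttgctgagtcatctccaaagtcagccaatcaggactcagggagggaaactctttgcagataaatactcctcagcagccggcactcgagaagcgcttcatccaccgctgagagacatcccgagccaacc

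The first 3 windows share the letters GGGAATTTCCC, which begin 71 bases before the start of Cxcl1, 97 before Cxcl2 and 73 before Cxcl3. In Cxcl10 the match GGGAAATTCC begins 159 bases before the start. The narrow motif was in 4 of the 11 windows of members that fell, in 2 of the 23 of members that did not pass (Ccl1 and Ccr3), and in 1.47% of all windows. Neither of the members that rose had it. The motif was narrowed after the calls were known, so these counts describe the windows and are not a test. Cxcl1, Cxcl2 and Cxcl3 are neighbours in the same cluster on chromosome 5, so their matches are not independent. The interferon element (GAAA, any 2 bases, then GAAA) was found in 1 member that fell (Cxcl10), 2 that did not pass and 3.44% of all windows. The AP-1 element TGANTCA was in 2 that fell (Ccl9 and Cxcl10), 4 that did not pass, 1 that rose (Ccl28) and 7.81% of all windows. The C/EBP element TTGCNNAA was in 1 member, Cxcl13, which fell, and in 10.8% of all windows. The STAT element TTCNNNGAA was in 1 that fell (Ccl17), 3 that did not pass and 8.3% of all windows. TGATGNAA, read by ATF4 with a C/EBP partner, was in 0 of the 36 members and 3.97% of all windows. These are matches of letters, and whether any factor bound there was not tested.

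Of the 5 members grouped here as ligands of CXCR2, the receptor that draws neutrophils, 4 fell, and the fifth, Cxcl15, was dim. Ppbp, a CXCR2 ligand outside the symbol rule, is given further below. Cxcl5 read 10.29, 10.59 and 10.33 on the DMSO arrays and 5.45, 5.46 and 5.41 with PTC-209. It was 31.2-fold lower (95% interval 26.5 to 36.9, limma adjusted p = 5.31e-08). The treated arrays lay together and far below every control array. Cxcl3 read 8.06, 8.39 and 8.35 in DMSO and 5.81, 5.43 and 5.50 with PTC-209, a 6.44-fold lower level (5.22 to 7.93, limma adjusted p = 1.09e-06). Cxcl1, the mouse chemokine long known as KC, read 9.84, 9.89 and 9.75 in DMSO and 8.47, 8.57 and 8.53 with PTC-209. It was 2.47-fold lower (2.14 to 2.85, limma adjusted p = 7.90e-06) and stayed well above the median in the treated cells. Cxcl2, or MIP-2, read 5.87, 6.13 and 5.97 in DMSO and 5.08, 4.95 and 5.18 with PTC-209, 1.90-fold lower (1.60 to 2.25, limma adjusted p = 2.02e-04). For each of these 4 genes the groups did not overlap, which held in this direction for 19.4% of all named genes. Their 95% intervals on the log2 scale were -5.20 to -4.73 for Cxcl5, -2.99 to -2.38 for Cxcl3, -1.51 to -1.10 for Cxcl1 and -1.17 to -0.68 for Cxcl2. Cxcl15, the lungkine of airway epithelium, was dim, at 1.96 ± 0.147 (SD, n = 3) and 1.75 ± 0.136, and did not pass.

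**Figure D2:**
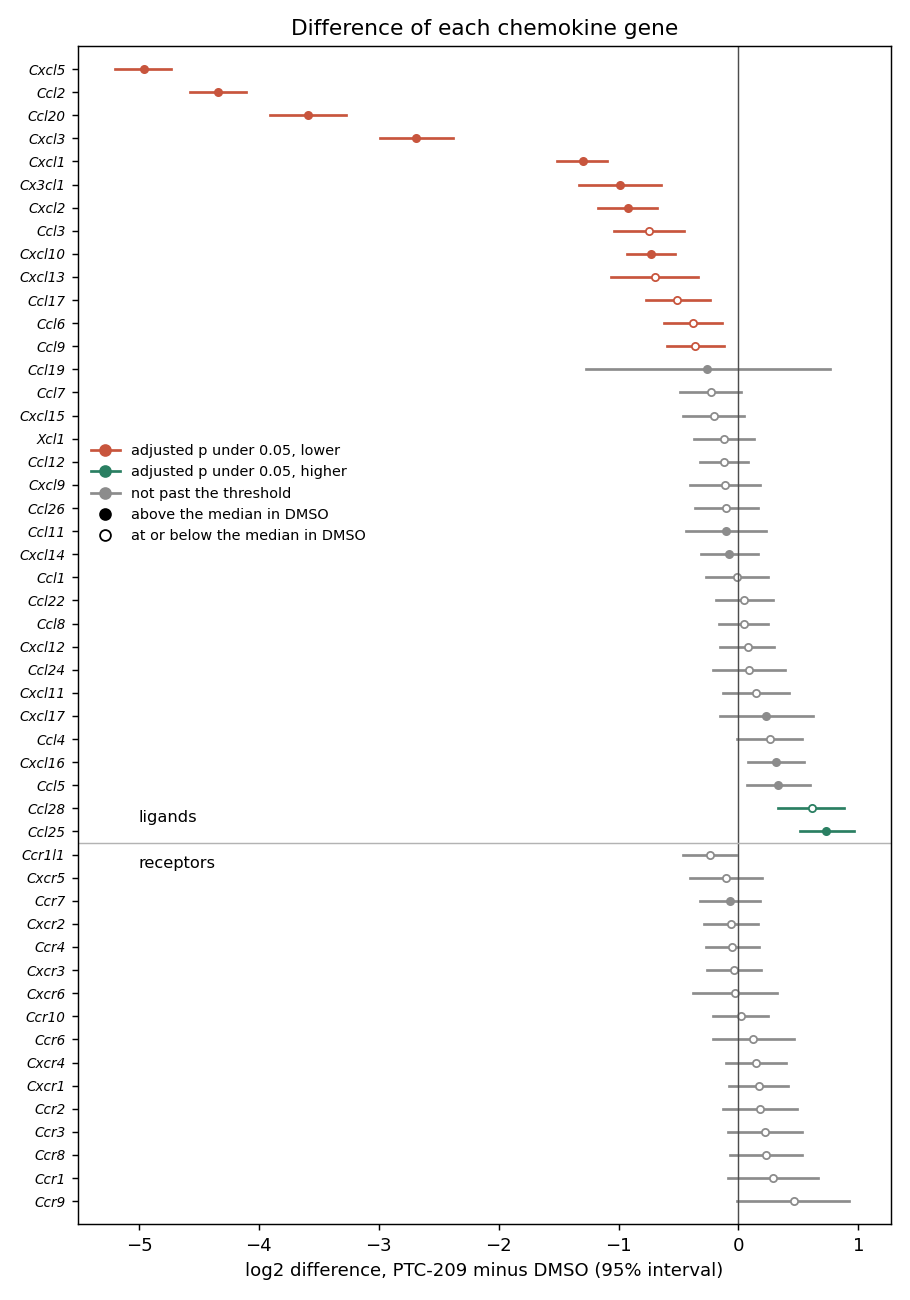
Log2 difference (PTC-209 minus DMSO) of all 50 members with its 95% interval from limma, ligands above and receptors below the line; filled points mark members above the median in DMSO. The 13 falls range from -4.96 to -0.36 and the 2 rises are 0.61 and 0.73, all of ligands, while the intervals of 15 of 16 receptors include 0.

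Among ligands of monocyte receptors the fall was of Ccl2. This chemokine, also called MCP-1, binds CCR2 and recruits monocytes. It read 9.15, 9.12 and 8.94 in DMSO and 4.69, 4.66 and 4.83 with PTC-209, a 20.3-fold lower level (17.3 to 23.8, limma adjusted p = 5.74e-08). All treated arrays were below all controls and just above the median line. Ccl7 (4.20 and 3.96), Ccl8 (2.15 and 2.20) and Ccl12 (2.82 and 2.70), near relatives of Ccl2, were dim in both groups and did not pass.

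Ccl20, the ligand of CCR6, which dendritic cells and Th17 cells carry, read 6.91, 6.79 and 6.97 in DMSO. With PTC-209 it read 3.01, 3.31 and 3.57, below the median on every array (log2 difference -3.59, SE 0.142, limma adjusted p = 4.10e-07). The treated arrays spread more than the controls, with an SD of 0.282 against 0.0934, and the gap between the groups was many times either. Ccr6 was dim, at 2.88 in DMSO and 3.0 with PTC-209.

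Further CC ligands that fell were dim in DMSO. Ccl3, or MIP-1 alpha, read 4.08, 4.58 and 4.24 in DMSO and 3.56, 3.53 and 3.57 with PTC-209 (limma adjusted p = 0.00214). Ccl6 went from 4.11 ± 0.142 to 3.73 ± 0.0839 (SD, n = 3; limma adjusted p = 0.0289) and Ccl9 from 3.89 ± 0.118 to 3.53 ± 0.112 (limma adjusted p = 0.0344). Neither call held without DMSO replicate 3 (limma adjusted p = 0.108 and 0.122), PTC-209 replicate 1 (0.0976 and 0.0835) or PTC-209 replicate 2 (0.0773 and 0.132), and Ccl9 also failed without DMSO replicate 1 (0.0703). Ccl4, the close relative of Ccl3, was 4.01 in DMSO and 4.27 with PTC-209 and did not pass.

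Ccl5, or RANTES, a T cell and monocyte attractant, was above the median. It read 7.63, 7.33 and 7.45 in DMSO and 7.71, 7.72 and 7.97 with PTC-209. All treated arrays were above all controls, an arrangement found in this direction for 21.1% of named genes, with a log2 difference of 0.33 (95% interval 0.07 to 0.60). It did not pass the test (limma adjusted p = 0.0705). Without DMSO replicate 1 the adjusted p was 0.0362.

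The membrane-tethered ligands, which are anchored by a mucin stalk and can be shed by ADAM proteases, gave 1 fall of 2. Cx3cl1, or fractalkine, read 5.82, 5.51 and 5.26 in DMSO and 4.45, 4.74 and 4.43 with PTC-209. It was 1.99-fold lower (1.57 to 2.51, limma adjusted p = 0.00102), and the groups did not overlap. Cxcl16, which binds CXCR6, read 7.41, 7.63 and 7.47 in DMSO and 7.82, 7.92 and 7.71 with PTC-209. Its log2 difference was 0.31 (0.08 to 0.55), with every treated array above every control, and it did not pass (limma adjusted p = 0.0577).

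Of the ligands of CXCR3, induced by interferon and attracting activated T cells, Cxcl10 fell. It read 5.72, 5.73 and 5.72 in DMSO and 4.97, 5.06 and 4.94 with PTC-209, 1.66-fold lower (1.45 to 1.91, limma adjusted p = 2.42e-04). The control arrays were almost identical, and the treated ones were all lower. Cxcl9 was dim, at 3.97 and 3.86, and Cxcl11, which RefSeq lists as a transcribed pseudogene in the reference strain, at 3.28 and 3.42. Neither passed.

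Ligands that organise lymphoid tissue or serve other leukocytes were mostly dim. Cxcl13, the B cell attractant of follicles, read 4.1, 4.22 and 4.33 in DMSO and 3.24, 3.89 and 3.42 with PTC-209 (limma adjusted p = 0.00971). Ccl17, a CCR4 ligand, read 4.07, 3.90 and 3.67 in DMSO and 3.35, 3.37 and 3.40 with PTC-209 (limma adjusted p = 0.0103). In both genes the treated arrays lay below the controls without overlap, though both levels are near or under the median. Ccl22, the other CCR4 ligand, was 3.55 and 3.60, and Cxcl12, which retains stem cells in marrow, 3.21 and 3.29. The CCR3 ligands of eosinophils, Ccl11 (4.44 and 4.33), Ccl24 (3.16 and 3.25) and Ccl26 (3.22 and 3.12), did not pass, nor did Ccl1 (3.66 and 3.65) or the lymphotactin Xcl1 (3.89 and 3.77).

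Ccl19, a CCR7 ligand of lymph nodes, could not be read clearly. Its brightest probe set read 7.06, 8.51 and 8.21 in DMSO and 6.69, 8.39 and 7.94 with PTC-209, with the groups overlapping (log2 difference -0.26, 95% interval -1.27 to 0.76, limma adjusted p = 0.77). Of its 3 other probe sets, 1 fell from 6.20 to 5.61 (limma adjusted p = 0.029), and the rest, at 3.70 and 3.68 and at 3.94 and 2.54, did not pass. The difference of the brightest set changed sign without DMSO replicate 2 (0.04) or PTC-209 replicate 1 (0.23). RefSeq lists pseudogenes of Ccl19 that share its sequence, so the gene behind these levels is uncertain.

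Mucosal ligands were the members that rose: 2 of 4. Ccl25, the thymus and small intestine ligand of CCR9, read 5.91, 5.83 and 5.71 in DMSO and 6.64, 6.52 and 6.49 with PTC-209, 1.66-fold higher (1.43 to 1.94, limma adjusted p = 4.66e-04). Its second probe set was 0.37 higher on the log2 scale and did not pass (limma adjusted p = 0.0527). Ccl28, made by mucosal epithelia for plasma cells and a ligand of CCR10, read 3.95, 4.04 and 3.83 in DMSO and 4.47, 4.77 and 4.40 with PTC-209 (limma adjusted p = 0.00492). Treated arrays of both genes were all above the controls, but Ccl28 was dim in DMSO. Cxcl14 was 4.52 and 4.44, and Cxcl17, a mucosal myeloid attractant, 4.50 and 4.74. Neither passed, although Cxcl17 did without PTC-209 replicate 1 (log2 difference 0.44, limma adjusted p = 0.0288).

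**Figure D3:**
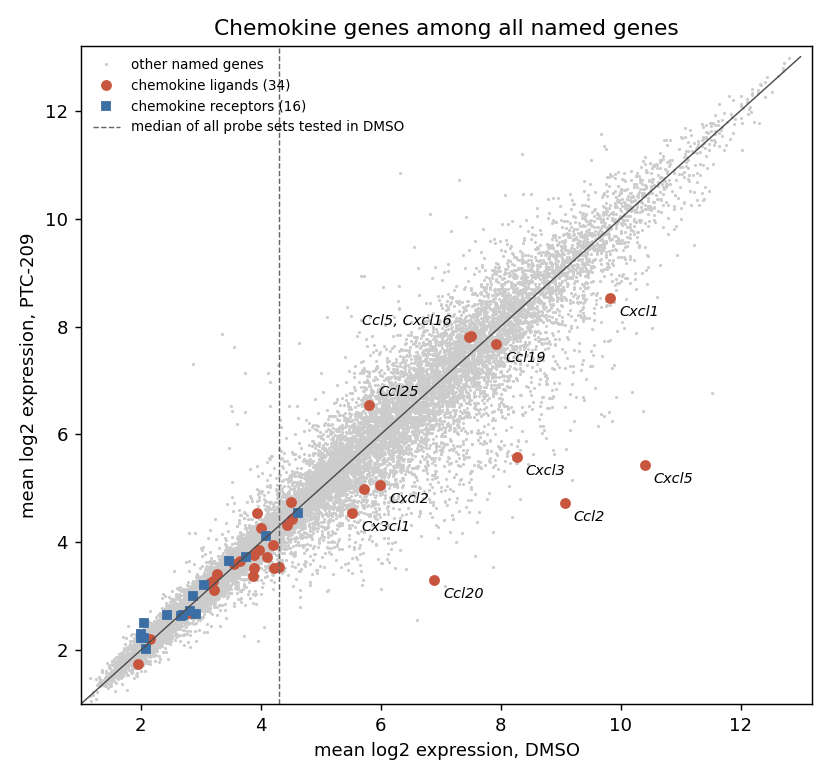
Mean log2 expression in DMSO (horizontal) and with PTC-209 (vertical) for all 19937 named genes, with the 34 ligands as circles and the 16 receptors as squares; the line marks equal levels and the dashed line the DMSO median (4.31). Cxcl5, Ccl2, Ccl20 and Cxcl3 lie far below the line, and 15 of the 16 receptors lie left of the dashed line.

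Of the 16 receptors 15 were dim, and none passed the threshold. In limma 0 of 16 fell and 0 rose, and 1, Ccr1l1 (2.92 and 2.68), had an unadjusted p under 0.05. At or below the median 1.5% of all named genes fell and 2.98% rose. The lack of calls therefore does not set the receptors apart from other dim genes. Ccr7, which guides cells to lymph nodes, was the receptor above the median, at 4.48, 4.70 and 4.67 in DMSO and 4.38, 4.62 and 4.64 with PTC-209, with overlapping groups. The other 15 had DMSO means between 2.0 and 4.09. They were Ccr1, Ccr1l1, Ccr2, Ccr3, Ccr4, Ccr6, Ccr8, Ccr9, Ccr10, Cxcr1, Cxcr2, Cxcr3, Cxcr4, Cxcr5 and Cxcr6. Differences over the 16 lay between -0.24 and 0.46, and the outermost ends of their 95% intervals were -0.46, for Ccr1l1, and 0.92, for Ccr9. Ccr9 read 1.64, 2.20 and 2.31 in DMSO and 2.12, 2.74 and 2.67 with PTC-209, and passed without PTC-209 replicate 1 (log2 difference 0.65, limma adjusted p = 0.046). The receptors of the ligands that fell most were all dim in both groups: Cxcr2 at 2.09 and 2.03, Ccr2 at 2.05 and 2.23, and Ccr6 as given above.

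Chemokine genes arose by local duplication, so neighbours are set side by side. Members were joined into clusters where the next member lay within 200 kb on GRCm38.p6, by the RefSeq gene table. On chromosome 5 the order is Cxcl5, Cxcl3, Cxcl15, Cxcl1 and Cxcl2, and 4 of these 5 fell, with log2 differences of -4.96, -2.69, -1.30 and -0.92 and the dim Cxcl15 at -0.20. Beside Ccl2 (-4.34) on chromosome 11 lie Ccl7 (-0.23), Ccl11 (-0.10), Ccl12 (-0.12), Ccl8 (0.05) and Ccl1 (-0.01), none past the threshold. In the other chromosome 11 cluster Ccl9, Ccl6 and Ccl3 fell, by 0.36, 0.38 and 0.75, between Ccl5 (0.33) and Ccl4 (0.26), which did not pass. On chromosome 8 Cx3cl1 (-0.99) and Ccl17 (-0.51) fell next to Ccl22 (0.05). On chromosome 5 Cxcl10 (-0.73) lies between Cxcl9 (-0.11) and Cxcl11 (0.15). Whether the differences of neighbours differ from each other was not tested.

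**Figure D4:**
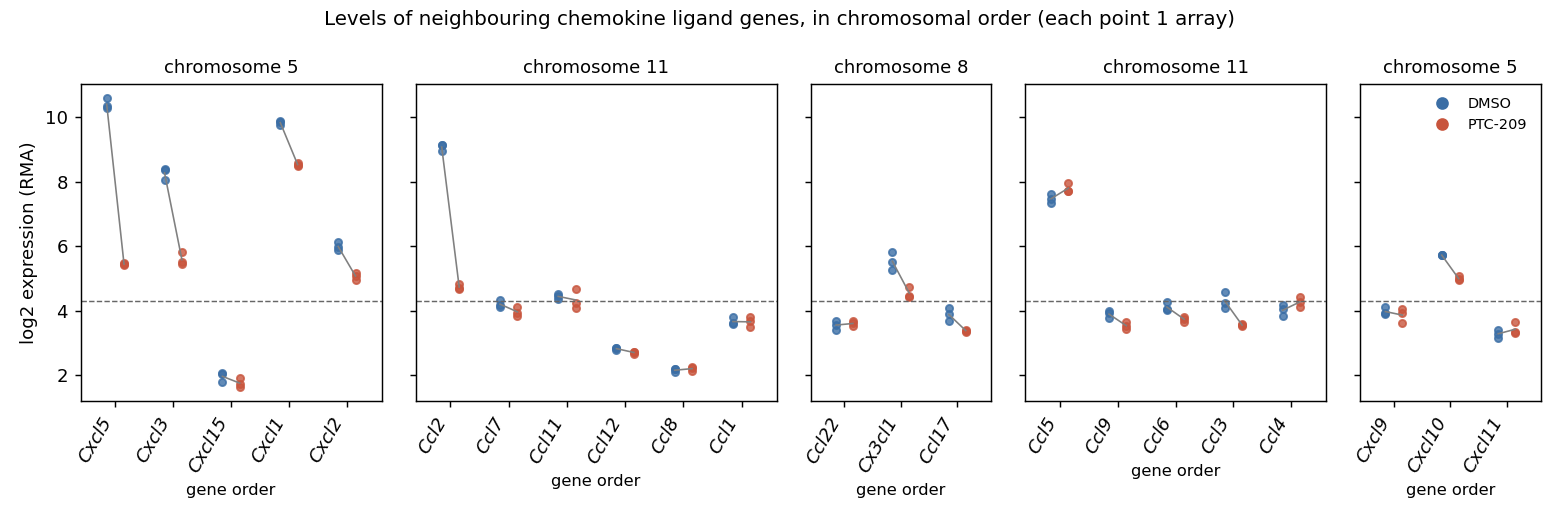
Log2 expression of the members of 5 clusters of neighbouring ligand genes, in chromosomal order, with each point 1 array, DMSO left and PTC-209 right of each gene, joined at their means; the dashed line is the DMSO median (4.31). In the first panel 4 of 5 genes fall, and in the second Ccl2 falls from 9.07 to 4.73 beside neighbours near or below the line.

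Chemokines and receptors outside the symbol rule gave 2 falls and 1 rise among 12. These were 16.7% and 8.33%, beside 13.7% and 12.9% of all named genes. Ppbp, also a CXCR2 ligand and a neighbour of Cxcl5, read 5.74, 5.90 and 5.30 in DMSO and 3.81, 4.29 and 3.77 with PTC-209 (limma adjusted p = 1.19e-04). Ackr3, an atypical receptor that scavenges Cxcl12, read 6.48, 6.50 and 6.77 in DMSO and 4.84, 4.76 and 4.93 with PTC-209, 3.34-fold lower (2.81 to 3.97, limma adjusted p = 4.17e-06). All its treated arrays were below its controls. Rarres2, which encodes the attractant chemerin, went from 3.53 to 4.1 (limma adjusted p = 0.00512), with both levels dim. The others did not pass: Pf4 (2.53 and 2.61), Cx3cr1 (4.1 and 4.07), Xcr1 (3.25 and 3.14), Ackr1 (2.65 and 2.54), Ackr2 (3.85 and 3.85), Ackr4 (3.06 and 3.12), Ccrl2 (3.55 and 3.33), Cmklr1 (3.90 and 3.93) and Mif (12.29 and 12.32).

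Genes of the routes that induce chemokines, with inducers and inhibitors counted together, moved in both directions. Of 14 subunits and regulators of NF-kB 5 fell and 3 rose, with a median log2 difference of -0.0511. These were 35.7% and 21.4%. All 14 lay above the median in DMSO, where 24.3% of all named genes fell and 21.3% rose. The falls were of the kinase Ikbke (by 2.08 on the log2 scale), the deubiquitinase Tnfaip3 (1.51), Nfkbiz (1.25), Bcl3 (0.48) and Nfkbie (0.37). The rises were of the inhibitor Nfkbib (0.65) and the subunits Relb (0.62) and Rela (0.32). Among 27 genes of inducing cytokines, their receptors and an antagonist 7 fell and 6 rose (median -0.0309). These were 25.9% and 22.2%, near the shares just given, and 20 of the 27 lay above the median in DMSO. Il33 went from 6.24 to 3.53, Il18 from 5.66 to 3.58, Csf1 from 7.18 to 5.47 and Csf3 from 7.66 to 6.02. Il1a, named after its value was seen, rose from 6.50 to 8.09 (limma adjusted p = 5.36e-06). The remaining genes past the threshold were also named after their values were seen. Ifngr2 (0.84), Ifnar2 (0.80), Il6st (0.71), Csf2 (0.65) and the antagonist Il1rn (0.57) rose on the log2 scale. Tslp (by 0.80), Ifngr1 (by 0.68) and Il1rap (by 0.42) fell. The classical inducers Tnf (4.01 and 4.03), Il1b (2.89 and 2.86) and Ifng (3.28 and 3.40), also named after their values were seen, were dim in both groups.

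Of 22 genes that relay receptor signals 5 fell and 4 rose (median 0.109), or 22.7% and 18.2%. In DMSO 14 of the 22 lay above the median, where 24.3% of all named genes fell and 21.3% rose. Rgs2, which shortens G protein signals, fell by 2.51 on the log2 scale, the phospholipase Plcb3 by 1.25, the inhibitory G protein subunits Gnai1 by 1.06 and Gnai2 by 1.04, and the kinase Grk5 by 0.64. The rises were of Gng5 (0.75), Gnai3 (0.65), Grk6 (0.39) and the arrestin Arrb1 (0.32). With DMSO replicate 2, DMSO replicate 3, PTC-209 replicate 1 or PTC-209 replicate 3 left out, the rises numbered 2.

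Of 20 proteases and glycan genes that trim, shed or present chemokines 3 fell and 1 rose (median -0.107). Above the median in DMSO lay 13 of the 20, and there 24.3% of all named genes fell and 21.3% rose. The shares of this list that fell and that rose were both smaller. The falls were of the membrane protease Mmp14 (by 1.0 on the log2 scale), the heparan sulfate polymerase Ext1 (0.74) and Adam10 (0.37), a sheddase of Cx3cl1 and Cxcl16, and the rise was of the glypican Gpc1 (0.55). Without DMSO replicate 3 the falls numbered 5. Of 10 interferon factors 2 fell, Irf9 (by 0.50) and Jak2 (by 0.31), and 0 rose in limma, with 2 of the 10 higher at an unadjusted p under 0.05. Of these 10 factors 9 lay above the median in DMSO, so the same shares of named genes apply. The count of falls was 1 without DMSO replicate 2 and 0 without any other single array, and Irf1 (6.56 and 6.54), named after its value was seen, did not pass.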

How the data were processed

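Each of the 6 arrays took biotin-labelled RNA from A316 cells, per the labels' protocols. In the deposited table every array has 1 column of log2 values from the authors' RMA step, which the submitters' processing notes name and which corrects background, equalises array distributions and sums up probe sets. Its version was not given in the sources used here. That the scale is log2 follows from the range of the values. Equalised arrays hide any shift common to most genes. Array medians over the probe sets tested were 4.285 to 4.345, and arrays correlated at 0.9924 to 0.9958 within groups and 0.9704 to 0.974 between them, taken across probe sets, which are not independent. Groups and replicate numbers came from the titles; the description field speaks of embryos, which does not match the other labels, and was not used.

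Of 34760 probe sets, a leading run of 6568 consecutive identifiers without listed genes was left out as array controls, and 28192 were tested, 21640 of them with 1 gene symbol in the platform annotation. The probe set with the highest mean over 6 arrays stood for a gene. All 50 members matched RefSeq by Entrez identifier and symbol. They had 54 probe sets, and 3 further probe sets listing several chemokine genes were not used as members. No filter on dim probe sets was applied. limma 3.58.1 in R 4.3.3 (lmFit on treatment alone, then eBayes under a constant prior) gave two-sided p-values, with Benjamini-Hochberg adjustment across every probe set tested. The precision is limited by 3 arrays per group. The script was tested on simulated data. The members, lists and motifs were chosen with earlier results of these data known. Named genes were all members; all genes of the list outside the symbol rule; and, of the other lists, up to 4 past the threshold with the largest difference, plus those making up a count of 5 or fewer. Of 149 list entries 142 matched a named gene. Alternatives were another prior, dim probe sets left out, 3 further scalings, array weights, a replicate block, treat at 1.2-fold, averaging a gene's probe sets, control probe sets kept, and each array left out. Figures were drawn with matplotlib 3.10.9.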

Additional observations from a re-analysis of the deposited data

How the results depend on the processing

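Of the 15 members past the threshold 10 kept their direction and their call under every alternative that tested them. The count of falls was 8 when dim probe sets were left out (17 members tested) and otherwise 9 to 13, and 11 to 13 without single arrays. The count of rises was 4 with array weights, 4 with a trended and robust prior, 4 when dim probe sets were left out, 1 when a fold change above 1.2 was required, and 2 to 4 without single arrays. With the replicate number as a block it was 4 (Cxcl16 added, and Ccr9 with a log2 difference of 0.46 and a limma adjusted p = 0.00974), while the count of falls was 13; arrays of the same number had correlated deviations of 0.231, 0.0703 and 0.0733, so the numbers do not show a pairing. The rises added with array weights, with the trended prior and without dim probe sets were Ccl5 and Cxcl16, and those added without PTC-209 replicate 1 were Ccr9 and Cxcl17. The test for 1.2-fold ended the calls of Ccl6, Ccl9, Ccl17, Ccl28 and Cxcl13, and keeping the control probe sets those of Ccl6 and Ccl9. Of members that had not passed, signs turned for Ccl19 (0.04 without DMSO replicate 2, 0.23 without PTC-209 replicate 1), Ccl11 (0.02) and Cxcl14 (0.01) without PTC-209 replicate 2, and Ccr7 (0.01) without PTC-209 replicate 1. Without single arrays their log2 differences ran from -0.69 to 0.23, -0.28 to 0.02, -0.13 to 0.01 and -0.14 to 0.01. The cause of these changes was not tested, beyond the fewer genes or arrays that the alternatives themselves use. Members above the median in DMSO numbered 16 to 20 over the alternatives. Rescaling the arrays moved the median difference of all probe sets from 0.03285 to between 0.00312 and 0.029. Of 192 counts over the related lists 26 moved by more than 1.5 times.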

Other observations

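Probe sets that list several chemokine genes were read as values only. The brighter of the 2 shared by Ccl27a and Ccl27b, skin chemokines that bind CCR10, was 5.85 ± 0.0981 (SD, n = 3) in DMSO and 6.07 ± 0.161 with PTC-209 (limma adjusted p = 0.229), and the dimmer was 2.15 ± 0.792 and 2.55 ± 0.612. The set shared by the Ccl21 genes, CCR7 ligands of lymphoid tissue, was 3.86 ± 0.161 and 3.79 ± 0.0934 (limma adjusted p = 0.73). Each Ccl27 set lists 5 genes in all, and the Ccl21 set lists 7, so these levels cannot be assigned to the chemokine genes alone.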
